A study of Mus musculus with 158 samples.

Results

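The genes described here are the nuclear genes of the mitochondrial respiratory chain and ATP synthase in single mouse brain cells. They were chosen by symbol alone, as all rows of the count table starting with Nduf, Uqcr or Atp5, the genes Sdha, Sdhb, Sdhc, Sdhd, Cyc1 and Cycs, and the symbols Cox4, Cox5, Cox6, Cox7 and Cox8 followed by letters or digits. This rule found 94 of 21956 genes. By known role, 36 belong to complex I, 4 to complex II, 10 to complex III together with cytochrome c, 19 to complex IV and 15 to complex V, and the other 10 are complex I assembly factors, the supercomplex factor Cox7a2l, Atp5s and Atp5sl. All 94 had a count in at least 1 cell.

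RNA of single cells was drawn into a patch pipette, amplified and sequenced, which gave 158 libraries from 149 cells after 9 pairs of repeat libraries had been summed. Cultured cells comprised 86 cortical astrocytes (7, 12, 14 or 15 days in culture), 13 cortical neurons (6, 10, 13 or 15 days) and 8 hippocampal neurons (15 days), and acute slices gave 22 cortical neurons, 15 neurons of the hippocampal field CA1 and 5 of CA3. The mice were labelled C57/BL6/N, except for the hippocampal cultures and the 7-day astrocytes (C57/BL6), and the labels name no mutant allele, no treatment and no age of the slice animals. Because no animal, donor or culture is named, every group is a single sample, so differences are given by size, with the spread over cells beside them, and none was tested. Levels are counts per 1000000 counts of all genes (CPM) over the summed cells of a group unless a cell is named.

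The cells carried the markers of their labels with exceptions. Of 15 neuron markers, the median neuron held between 9 (cortical slices) and 15 (hippocampal cultures), and the median astrocyte 3. Of 15 astrocyte markers the median astrocyte held 10 and the median cultured cortical neuron 5, with 0 to 14 over the cells. Microglia markers summed to 3185 CPM in cortical slice, 8404 in CA1 and 294 in CA3 neurons, with 12, 12 and 4 of the 12 detected in some cell. Gad1, the GABA-synthesising enzyme of inhibitory neurons, was detected in all 8 cultured hippocampal neurons, in 7 of 13 cultured cortical neurons and in 0 of 5 CA3 neurons. Libraries held 535369 to 38680739 counts (median 10735985), and groups between 27452025 (CA3) and 1275296188 (astrocytes).

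Complex I passes electrons from NADH, and complex II those from succinate, to ubiquinone. Complex III hands them to cytochrome c and complex IV from there to oxygen, and complex V, the ATP synthase, uses the proton gradient that complexes I, III and IV build. Neurons draw most of their ATP from this chain, and astrocytes are known for a larger part of glycolysis. The transcription factor NRF1 binds the promoters of many of these genes, an activity first described at the cytochrome c gene.

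Promoter windows of 300 bases, from 250 before to 50 after the start, were found for 77 of the 94 genes in the RefSeq table (build GRCm38.p6). The NRF1 core GCGCNTGCG, searched on both strands, was found for 27 of the 77 genes (35.1%) and for 9.68% of 17491 protein-coding genes. Some genes have more than 1 window, and a gene counted when any of its windows matched. The stricter form GCGCATGCG, every match of which also matches GCGCNTGCG, was in 14.3% and 2.61%. The ETS core CCGGAAG was in 22.1% and 12.9%, and the SP1 box GGGCGG in 45.5% and 49.2%. These are matches of letters, and binding was not measured. The 250 bases before the start are shown for 3 genes on the minus strand that the results return to: Cycs, the electron carrier cytochrome c (chr6:50566570-50566819), Cox6a1, the common form of a complex IV subunit (chr5:115348959-115349208), and Ndufs5, a complex I subunit nearly without counts (chr4:123718187-123718436). Capitals mark matches to GCGCNTGCG or its reverse complement, of which Cycs has 1, at 61 bases before the start, Cox6a1 3, some of them overlapping, and Ndufs5 1.
Cycs: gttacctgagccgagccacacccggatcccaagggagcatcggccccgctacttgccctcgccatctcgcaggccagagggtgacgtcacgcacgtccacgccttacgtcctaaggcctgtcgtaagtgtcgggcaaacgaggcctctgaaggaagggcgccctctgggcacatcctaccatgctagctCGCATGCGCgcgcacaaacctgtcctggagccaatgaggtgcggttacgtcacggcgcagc
Cox6a1: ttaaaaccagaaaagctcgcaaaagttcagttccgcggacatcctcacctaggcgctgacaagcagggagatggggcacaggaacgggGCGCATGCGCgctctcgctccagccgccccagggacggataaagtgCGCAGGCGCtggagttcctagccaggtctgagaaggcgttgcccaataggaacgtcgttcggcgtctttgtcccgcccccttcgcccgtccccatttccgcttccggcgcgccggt
Ndufs5: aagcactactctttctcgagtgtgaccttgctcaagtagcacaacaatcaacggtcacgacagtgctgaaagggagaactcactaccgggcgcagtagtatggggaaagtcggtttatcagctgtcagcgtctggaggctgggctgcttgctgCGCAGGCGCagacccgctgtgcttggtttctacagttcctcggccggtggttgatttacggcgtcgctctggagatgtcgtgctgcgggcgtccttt

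Between 2.77% and 5.13% of all counts fell on the 94 genes, depending on the group. Cultured hippocampal neurons were highest at 5.13% (lowest cell 3.39%, median 5.40%, highest 13.5%). Cultured cortical neurons had 2.82% (1.61%, 2.37% and 5.14%) and astrocytes 2.77% (0.220%, 2.80% and 6.10%). In slices, cortical neurons had 2.89% (0.107%, 1.91% and 5.55%), CA1 neurons 3.29% (0.274%, 2.39% and 5.16%), and the 5 CA3 neurons 2.91% (1.75%, 4.52%, 1.38%, 1.70% and 4.58%). The ranges of all groups overlapped, and the lowest hippocampal cell lay above the median of every other group. The SD over cells of the log2 percent was 0.50 in cultured cortical and 0.61 in hippocampal neurons, 0.76 in astrocytes, 0.84 in CA3 and 1.27 in both other slice groups, so that slice neurons differed most from each other.

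**Figure D1:**
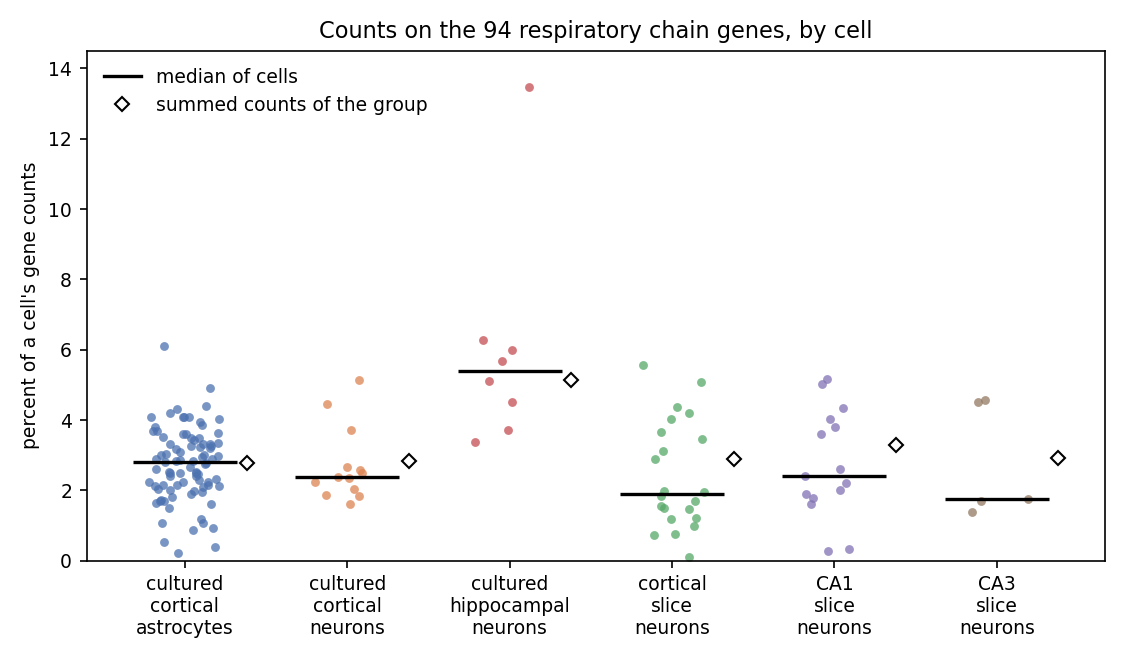
Percent of a cell's counts that fell on the 94 respiratory chain genes (vertical axis), with each point a cell, by group (horizontal axis). The 8 cultured hippocampal neurons lie between 3.39% and 13.5%, and cortical slice neurons range from 0.107% to 5.55%.

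Complexes I, III, IV and V took similar parts of these counts in 5 of the 6 groups. Complex I took 25.8% of the counts on the 94 genes in astrocytes and 28.4% in cortical slice neurons, the lowest and highest of those 5 groups, and 51.2% in CA3 neurons, which was 32.7% without the cell CA3-8. Complex V took 34.97% in astrocytes, 29.2% in CA1 and 27.1% in CA3, which was 47.2% without CA3-8. Complex II, the smallest, took 4.10% in cultured cortical neurons, 2.43% in cortical slice neurons, 1.81% in CA1 and 0.334% in CA3. The assembly factors and related genes took 1.91% in cultured hippocampal neurons and 7.16% in CA1. As a percent of all counts, complex I had 1.49% in CA3 neurons and 0.926% in CA1 neurons, but 0.648% in CA3 without that cell, and complex II 0.00972% and 0.0596%.

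How many of the genes were seen in a cell differed more than their summed share. Each cell was thinned to 1000000 counts, and a gene with at least 5 of these was called detected, which left out 1 CA1 neuron of lower depth. The median hippocampal cell held 84 of the 94 genes (83 to 86 over cells), the median astrocyte 75 (13 to 85) and the median cultured cortical neuron 71 (31 to 82). In slices the medians were 34 (5 to 82) for cortical, 42.5 (17 to 65) for CA1 and 32 (31 to 41) for CA3 neurons. No slice cell therefore reached the lowest hippocampal one. The median of all genes detected was 7492, 4943 and 4461 in hippocampal neurons, astrocytes and cultured cortical neurons, in the same order as for the 94 genes, and 1814, 1892 and 2181 in cortical, CA1 and CA3 slice neurons. Both numbers were lower in the slice groups than in the cultures, but CA3 neurons had the lowest median of the 94 genes and the highest median of all genes among the slice groups. Over the cells of a group, detected respiratory genes and detected genes were correlated with Pearson's r of 0.79 (86 astrocytes), 0.95 (13 cultured cortical neurons), 0.86 (22 cortical slice neurons) and, lowest, 0.61 (14 CA1 neurons), values that share the cell's library. For the percent of counts and detected genes r was 0.06, -0.04, 0.17 and -0.13 in the same groups.

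**Figure D2:**
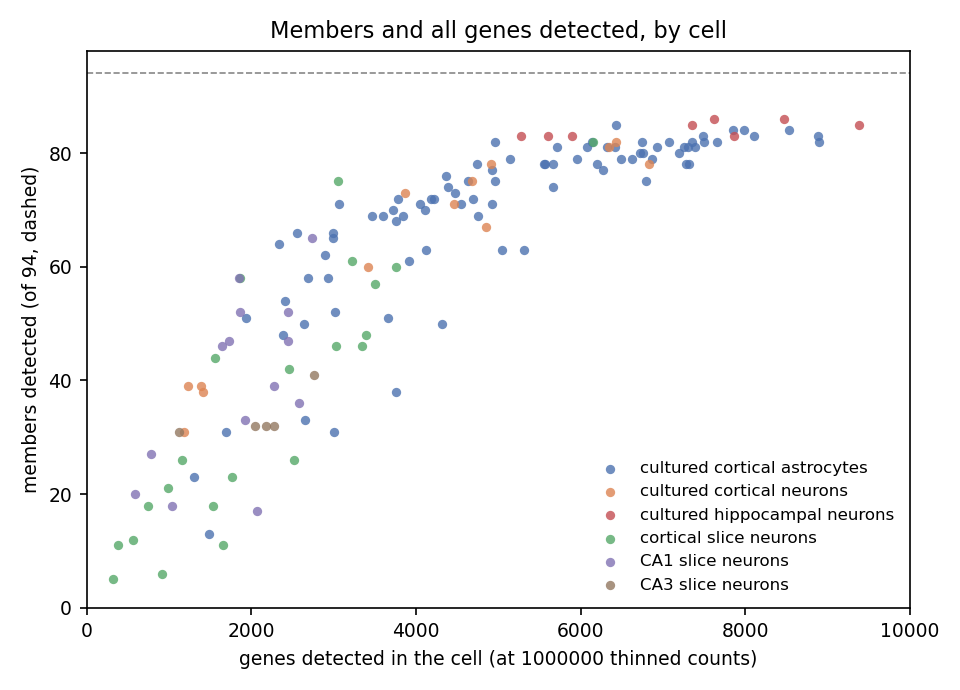
Number of the 94 respiratory chain genes detected (vertical axis) against all genes detected (horizontal axis) in each cell thinned to 1000000 counts, coloured by group. Both numbers are low in most slice neurons, where the median cortical cell has 34 of the 94 genes and 1814 genes, and highest in cultured hippocampal neurons, with medians of 84 and 7492.

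In hippocampal neurons 79 of the 94 genes were detected in all 8 cells, among them 35 of the 36 complex I genes. In the other groups the ATP synthase genes had the highest median share of cells with a gene detected among the complexes. It ran from 59.1% in cortical slice neurons to 93.0% in astrocytes. The median of complex IV includes 8 tissue isoforms. Atp5g3, which encodes the proton-carrying c subunit, was detected in 86 of 86 astrocytes, 11 of 13 cultured cortical, 18 of 22 cortical slice, 12 of 14 CA1 and 5 of 5 CA3 neurons. Atp5b, the catalytic beta subunit, was detected in 85, 12, 15, 12 and 5 of them, and Atp5a1, the alpha subunit, in 83, 13, 14, 10 and 5. The assembly factors and related genes were seen less, with a median share of cells of 42.4% in astrocytes, 11.4% in cortical slice neurons and 0% in CA3 neurons. Genes of at least 10 CPM were detected in a median of 45.5% of cortical slice and 50% of CA1 neurons when they belonged to the respiratory chain, and in 22.7% and 21.4% when all genes were taken. In CA3 both medians were 40%.

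**Figure D3:**
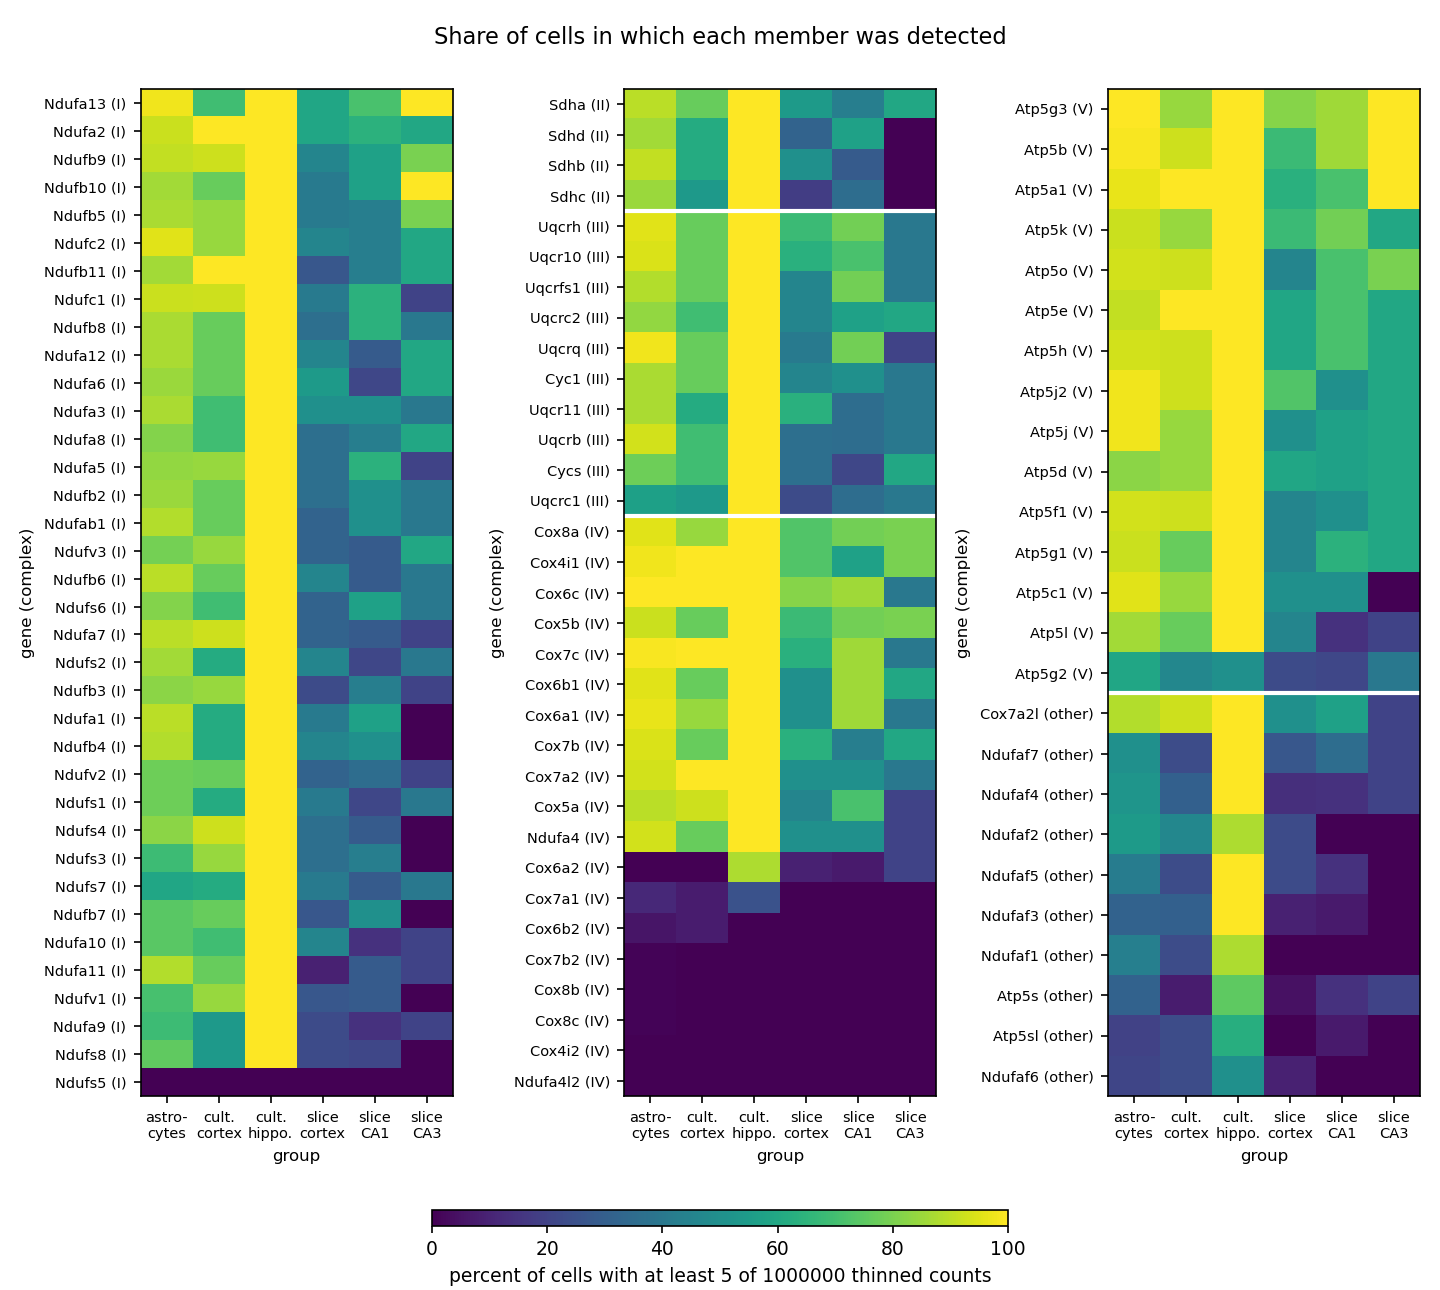
Percent of cells of each group (columns) in which each respiratory chain gene (each line of the map, ordered by complex) was detected after thinning to 1000000 counts. Cultured hippocampal neurons are near 100% for most genes, with 79 of 94 detected in all 8 cells, and the slice groups are patchy within every complex.

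Which genes led also differed from cell to cell. The 5 highest genes of a cell took a median of 26.6% of its counts on the 94 genes in hippocampal neurons, 35.3% in astrocytes, 35.5% in cultured cortical, 67.9% in cortical slice, 60.97% in CA1 and 55.6% in CA3 neurons. The highest gene was Atp5g3 in 5, Atp5b in 2 and Cox6c in 1 of the 8 hippocampal cells. Among 22 cortical slice neurons 14 different genes were highest in some cell, among 15 CA1 neurons 11, and each of the 5 CA3 neurons had a different one. The 8 pairs of repeat libraries known by their titles had r between 0.950 and 1.000 over the 94 genes and percents within a ratio of 1.13. A further pair, of a cultured cortical neuron, had percents in a ratio of 1.33 and was taken as a repeat from its counts, so its own r is no check.

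The comparisons of groups below use 1 rule of size. A gene was measured when both groups together had at least 10 counts and at least 3 cells a count. It was past the fold when a group had at least 10 CPM, the log2 ratio (pseudocount 1 CPM) reached 1 in either direction both for summed counts and for CPM averaged over cells, and the share of cells with the gene detected differed the same way. The same rule over all measured genes gives the background. Intervals on levels (exact Poisson, 95%) and on ratios cover counting error only.

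Cultured hippocampal neurons had more counts on the respiratory chain than cultured cortical neurons, both untreated cultures that differ in region, strain label, culture days and marker makeup. The log2 ratio of the percents was 0.86, a fold of 1.82, with folds of 1.69 for complex I, 1.39 for complex II, 1.73 for complex III, 2.33 for complex IV and 1.798 for complex V. All 8 hippocampal cells lay above the cortical median, 4 of them above all 13 cortical cells, and for complex IV 6 did. Of 88 measured genes, 39 were higher past the fold, beside 19.2% of all measured genes, and 0 were lower, beside 7.36%. The median log2 ratio was 0.95 against 0.15 over all genes when scaled by total counts, but with edgeR's TMM factors it was -0.05 against -0.54, and with DESeq2's size factors -0.64 against -0.76, and 4 and 2 genes were then past the fold, beside 6.81% and 0.771% of all genes. With 15-day cultures only, which leaves 3 cortical neurons, 13 of 87 were higher past the fold, beside 27.2% of all genes, and 1 was lower, beside 12.5%. Inhibitory neuron markers summed to 15137 CPM in hippocampal and 2525 in cortical neurons, astrocyte markers to 524 and 2572, and the median of detected genes was 7492 and 4461, and the part of these in the difference was not tested.

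In complex I, 13 of 35 measured genes were higher past the fold. Ndufs1, the large iron-sulphur subunit of the electron entry arm, had 175, 411 and 578 CPM in the lowest, median and highest hippocampal cell and 0, 41.3 and 366 in cortical cells. Ndufs8, another iron-sulphur subunit, had 136.5, 244 and 360 CPM against 0, 6.88 and 196, and Ndufa9, an accessory subunit, 150, 201 and 310 against 0, 10.9 and 175. Of the 8 hippocampal cells, 5, 6 and 5 lay above all 13 cortical cells for these genes, and the ranges overlapped. Their log2 ratios were 1.48, 1.99 and 2.49, and Ndufs7, a further core subunit, had 314 against 141 CPM (1.15). Ndufa9 alone of these 4 was also past the fold with TMM factors, and none was with DESeq2's.

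In complex II, Sdhb, its iron-sulphur subunit, had 171, 505 and 746 CPM in hippocampal cells against 0, 60.6 and 534, with 4 cells above all cortical ones. Its log2 ratio was 1.04 (460 against 222.5 CPM), and 0.99 without the highest hippocampal cell, which ends the call. Sdha, the flavoprotein that holds the succinate site, had 599 against 545 CPM and was not past the fold. In complex III, the core protein genes Uqcrc1 (178, 272 and 392 CPM against 0, 8.29 and 268.7) and Uqcrc2 (68.1, 845 and 1167 against 0, 196 and 509) had 4 and 6 hippocampal cells above all cortical ones. Their log2 ratios were 1.51 and 1.64. Cycs, whose promoter is printed above, had 171, 373 and 861 CPM against 0, 86.3 and 481, with 1 cell above all cortical cells and a log2 ratio of 1.33. Uqcrb, which helps to bind ubiquinone, was not higher in hippocampal cells (490 against 705 CPM), and the highest cortical cell had 5147 CPM.

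In complex IV, 1 gene separated the groups. Ndufa4 (chr6:11900292-11907497, minus strand, GRCm38), named for complex I and since assigned to complex IV, had 778, 1380 and 4567 CPM in hippocampal cells against 0.119, 99.4 and 570, so that all 8 lay above all 13 cortical cells. It had 1442 CPM (1434 to 1450) against 191 (189 to 193), a log2 ratio of 2.91, and was past the fold with all 3 scalings. Cox6a1, whose promoter is also printed, had 483, 1528 and 6898 CPM against 0.0768, 357 and 933, and Cox6b1, the subunit that bridges the complex IV dimer, 642, 849 and 3594 against 0, 165 and 831. For these, 6 and 4 cells lay above all cortical ones, with log2 ratios of 1.95 and 1.57, and neither was past the fold with the other scalings. Cox4i1, which modulates the enzyme's response to ATP, had 865 against 862 CPM. In complex V, Atp5g1, a gene for the c subunit, had 659, 1193 and 3369 CPM against 0, 131 and 978 (6 cells above all cortical ones, log2 ratio 2.23, also past the fold with TMM). Its sister gene Atp5g3 had a log2 ratio of 1.12, and Atp5a1 2071 against 1996 CPM, with no hippocampal cell above the highest cortical one. Among the factors outside the complexes, Ndufaf1 and Ndufaf3, which assemble complex I, had 84.5 against 29.5 and 51.4 against 20.4 CPM, and Atp5s, a coupling factor, 51.7 against 8.10 CPM, and none was past the fold with the other scalings.

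**Figure D4:**
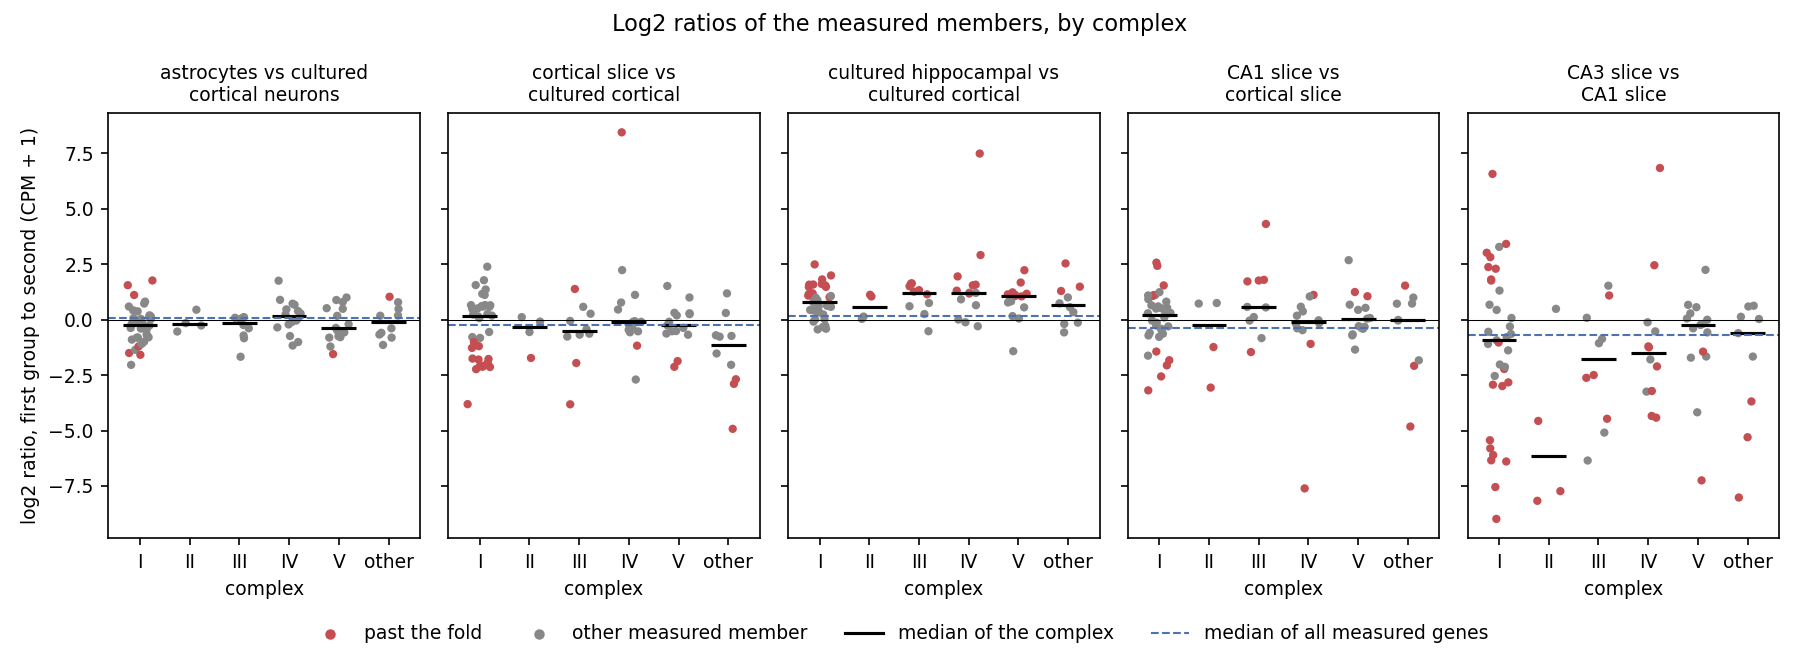
Log2 ratio of CPM (scaled by total counts) of each measured respiratory chain gene in each of the 5 comparisons, by complex. The genes of cultured hippocampal against cortical neurons have a median of 0.95, which is -0.05 with TMM and -0.64 with DESeq2 scaling, and those of CA3 against CA1 spread widest.

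The highest hippocampal cell, titled M9D, held 13.5% of its counts on the respiratory chain, and without that cell 28 of 87 genes were higher past the fold, beside 19.9% of all genes. Counted gene by gene, 28 of the 39 stayed past the fold without their own highest cell. Titles of hippocampal cells end in S or D, letters with no meaning given. Whether titles of the same number come from the same neuron is not given either, and every hippocampal library was counted as a separate cell. Both cells ending in D, M1D and M9D (6.28% and 13.5%), were above the S cell of the same number (M1S at 3.72%, M9S at 5.68%). Without the 2 D cells the percent was 4.54% and 26 of 87 genes were higher past the fold, beside 20.3% of all genes.

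Astrocytes and cultured cortical neurons, which share region and culture type, had nearly equal shares on the respiratory chain (log2 ratio -0.03, and 0.01 with cells weighted equally). Of 91 measured genes 4 were higher past the fold in astrocytes, beside 18.5% of all genes, and 4 were lower, beside 11.2%. With DESeq2 scaling 2 were higher, beside 7.72%, and 8 lower, beside 6.54%, so that the share of lower genes lay below the background with total counts and above it with DESeq2. Their median log2 ratio was -0.16 against 0.08 over all genes, and -0.43 against 0.01 with DESeq2 scaling. Ndufb6, an accessory subunit of the complex I membrane arm, had 0, 436 and 2223 CPM in the lowest, median and highest astrocyte against 0, 64.4 and 555 in neurons, with 33 of 86 astrocytes above all neurons and a log2 ratio of 1.55. Ndufa9 had 0, 29.8 and 1028 CPM against 0, 10.9 and 175 (26 astrocytes above all neurons, log2 ratio 1.77), and Ndufc2, a further membrane arm subunit, 591 against 273 CPM. These 3 stayed past the fold without the highest astrocyte, and Ndufc2 did not with TMM or DESeq2 scaling. Ndufaf1, a complex I assembly factor, had 61.4 against 29.5 CPM, and was not past the fold without the highest astrocyte (log2 ratio 0.88).

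The 4 genes lower in astrocytes were Ndufv1, which carries the NADH site of complex I, Ndufs7, Ndufb7 and Atp5d, the delta subunit of the ATP synthase rotor. Atp5d had 0, 44.7 and 395 CPM in astrocytes against 0.0403, 118 and 2332 in neurons, and its log2 ratio of -1.55 was -1.33 without the highest neuron. For the other 3 a single neuron decided the call. Ndufb7 had 65.5 against 188 CPM, of which 62.1% came from 1 neuron, and the log2 ratio of -1.50 was -0.21 without it. Ndufv1 and Ndufs7 had log2 ratios of -1.21 and -1.59, which were -0.81 and -1.03 without the highest neuron, and neither was then past the fold. The percent on the 94 genes was 3.32% in astrocytes of 7 days (3 cells), 2.84% at 12 days (70), 2.49% at 14 days (5) and 2.25% at 15 days (8). The 7-day cells lay between 3.20% and 4.09%, above the 15-day cells (1.18% to 3.18%) and within the range of the 12-day cells. Among astrocytes only the 7-day cells carry the other strain label, so culture days and strain label cannot be told apart for them.

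Cortical neurons in acute slices and in culture also had nearly equal summed shares (log2 ratio 0.035). This direction turned with cells weighted equally (-0.16) and between basecalling versions, at 0.35 with v1.8.4 and -0.17 with v2.17, which also split the culture ages. Of 89 measured genes, 2 were higher past the fold in slices, beside 9.09% of all genes, and 22 were lower, beside 25.9%. The counts were 10 and 10 of 85 with v1.8.4, beside 18.7% and 24.1% of all genes, and 1 and 34 of 85 with v2.17, beside 8.72% and 30.1%. The median log2 ratio of the 94 genes was -0.31 against -0.24 over all genes, and 0.38 against 0.05 with DESeq2 scaling, where 12 were lower past the fold, beside 11.1% of all genes. Microglia markers summed to 3185 CPM in slice and 520 in cultured neurons, and 34 of 88 genes were lower past the fold without the 10 slice cells that held such markers, beside 30.9% of all genes.

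Complex I, with 35 of the 89 measured genes, held 13 of the 22 lower genes, with 4 of its 7 core subunits among them. As a whole it was not lower in slices. Its level was higher for 19 of the 35 genes and lower for 16, with a median log2 ratio of 0.15. It took 0.821% of all counts in slices and 0.790% in culture. With DESeq2 scaling the median was 0.89, and 9 genes were lower past the fold. Ndufv1 and Ndufv2 form the NADH-oxidising tip of complex I. Ndufv1 had 0, 0.266 and 275.97 CPM in the lowest, median and highest slice cell against 0, 29.5 and 1566 in culture, and Ndufv2 0, 0.303 and 259 against 0, 71.3 and 729. No slice cell lay above the cultured range, and 3 and 5 of 22 above the cultured median. Their log2 ratios were -2.14 and -2.10. Ndufb7 had 12.4 against 188 CPM (log2 ratio -3.81, and -2.51 without the highest cultured neuron), and Ndufs3, a core subunit of the electron entry arm, 27.5 against 95.2 CPM (-1.76). These 4 stayed past the fold without their highest cell. The median log2 ratio was -1.76 over the 7 core and 0.21 over the 28 measured accessory subunits, and -0.98 and 0.95 with DESeq2 scaling.

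Outside complex I, Cox5a, a matrix-side subunit of complex IV, had 0, 4.93 and 2625 CPM in slices against 0.239, 693 and 4253 in culture, with a log2 ratio of -1.17 that was -0.79 without the highest cultured neuron, which ends the call. Sdha had 164 against 545 CPM (0, 7.91 and 749 against 0, 419 and 1357) and Uqcrc1 5.72 against 93.8 CPM, and both stayed past the fold without their highest cell. The 2 higher genes were Uqcr11, a small complex III subunit, and Cox6a2, described with the tissue isoforms. Uqcr11 had 0, 44.4 and 3304 CPM in slices against 0, 50.7 and 265.2, and its log2 ratio of 1.38 was 0.76 without the highest slice cell, which ends the call. Over 85 genes, the log2 ratio and the log2 of transcript length had Pearson's r of -0.30, against 0.10 over all genes. The median log2 ratio was 0.11 for 28 transcripts under 700 bases and -0.76 for 31 of 1200 bases or more. These values share the same libraries, and the part of length was not tested.

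CA1 neurons had a log2 ratio of 0.18 to cortical slice neurons, which was -0.17 with v1.8.4 and 0.42 with v2.17. Of 85 measured genes, 13 were higher past the fold, beside 12.4% of all genes, and 12 were lower, beside 22%. With v1.8.4 the counts were 7 and 23 of 84, beside 10.3% and 41.4% of all genes, and with v2.17 they were 25 and 10 of 84, beside 17.0% and 20.9%, so the balance turned between versions. The median log2 ratio was 0.10 against -0.37 over all genes. With DESeq2 scaling it was 0.73 against -0.05, and 23 genes were higher past the fold, beside 13.3% of all genes, and 8 lower, beside 14.6%. Microglia markers summed to 8404 and 3185 CPM in these groups, and their part was not tested.

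Complex III, with 10 of the 85 measured genes, had 4 of the 13 higher genes. Uqcrq, a small subunit near its ubiquinone-binding part, had 0, 171 and 656 CPM in CA1 cells against 0, 1.85 and 459 in cortical ones, with a log2 ratio of 1.79, and Uqcrc2 596 against 180 CPM (1.72). Uqcrc1 had 133 against 5.72 CPM (4.31), with 84.1% of the CA1 counts in 1 cell and a ratio of 1.804 without it. These 3 stayed past the fold without their highest cell, as did Ndufb11 (447 against 74.4 CPM) and Ndufb7 (71.2 against 12.4 CPM) of complex I and Atp5k (1925 against 811 CPM), a membrane subunit of the ATP synthase. Cox6a1 had 0, 989 and 14311 CPM in CA1 cells against 0, 4.35 and 5771, and was detected in 12 of 14 against 11 of 22 cells. Its log2 ratio of 1.12 was 0.58 without the highest CA1 cell, which ends the call. Of the 13 genes, 6 stayed past the fold in this way.

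Lower in CA1 when scaled by total counts were Sdhb and Sdha, the catalytic pair of complex II. Sdhb had 0, 0.377 and 191 CPM in CA1 cells against 0, 11.4 and 1538, and Sdha 0, 1.22 and 478 against 0, 7.91 and 749. Their log2 ratios were -3.06 and -1.24, and both stayed past the fold without the highest cortical cell, together with only Ndufaf2, a complex I assembly factor (0.231 against 33.8 CPM). The other 9 did not, among them Ndufs1 (19.8 against 121.6 CPM), whose cortical counts came to 62.5% from 1 cell, and Cox4i1 (345 against 738 CPM), with 44.3% from 1 cell. The membrane anchors of complex II, Sdhc and Sdhd, had 287.03 and 211.8 CPM in CA1 and 173 and 126 in cortical cells. With TMM factors only 1 gene of complex II was lower past the fold, and with DESeq2's 1 was lower and 2 were higher. The median log2 ratio of complex II was -0.26 with total counts and 0.37 with DESeq2 scaling.

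In CA3 against CA1 neurons, complex II was lowest among the complexes in its ratio over summed counts, but not in the ratio of cell medians. For the medians the log2 ratio was -0.36 for complex II, -1.44 for complex III and -0.79 for complex IV. The log2 ratio of the summed percent was -2.61 for complex II, -0.85 for complex III, -0.84 for complex IV and -0.29 for complex V. It was -4.86 for the assembly factors and related genes, but the median log2 ratio of their 9 measured genes was -0.61. The supercomplex factor Cox7a2l had a log2 ratio of -8.02, with 1899 CPM in CA1 even without its highest cell. Each of these ratios of the summed percent kept its sign without any 1 CA3 cell, and no CA1 cell was left out in this way. For complex I the log2 ratio of the summed percent was 0.69, which turned to -0.51 without CA3-8. That cell had 2.95% of its counts on complex I (0.469%, 0.380%, 0.653% and 1.49% in the other 4). Over all 94 genes it was -0.17, and -0.73 to 0.04 when each CA3 cell was left out in turn, with the lowest value without CA3-8. Of 85 measured genes, 11 were higher past the fold, beside 17.2% of all genes, and 29 were lower, beside 25.8%. Of these, 8 of the 11 and 12 of the 29 lay in complex I, which had 35 of the 85 measured genes. The median log2 ratio was -1.03 against -0.70 over all genes. With basecalling v2.17 only, 11 and 34 of 82 were past the fold, beside 16.7% and 29.1% of all genes, and v1.8.4 has 1 CA3 cell. Other cell type markers differed between these groups. Microglia markers summed to 294 CPM in CA3 and 8404 in CA1, with 11 of 12 lower past the fold, and inhibitory neuron markers to 0.474 and 1641 CPM, with all 5 measured ones lower. Without the 1 CA3 and 8 CA1 cells that held microglia markers, the log2 ratio over the 94 genes turned to 0.43, and 15 of 81 genes were higher past the fold, beside 19.5% of all genes, and 21 lower, beside 25.7%. The part of inhibitory neuron markers was not tested.

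The higher genes rested on few cells, and 4 of the 11 stayed past the fold without their highest one. In the order CA3-2, CA3-8, CA3-9, CA3_10 and CA3_21, Ndufb10, a complex I membrane arm subunit, had 13.6, 1960, 58.3, 1602.5 and 1923.5 CPM, and its CA1 cells had 0, 3.74 and 1486 as the lowest, median and highest. Ndufa13, an accessory subunit, had 206, 3292, 3.39, 539 and 5890 CPM, against 0, 87.9 and 1988. All 5 CA3 cells lay above the CA1 median for Ndufb10 and 4 for Ndufa13, and 3 and 2 above all CA1 cells. Their log2 ratios were 1.81 and 2.37, and Ndufs1 and Ndufv3 were the other 2 that stayed. Ndufb9, a further membrane arm subunit, had 246.3, 8887, 1423, 1298 and 0.510 CPM. The cell CA3-8 gave 85.5% of its counts, and its log2 ratio of 2.82 was 0.70 without that cell. The same cell gave 92.2% of the counts of Cox4i1 (47.8, 4757, 729, 224 and 1.53 CPM), whose log2 ratio turned from 2.45 to -0.55 without it, and all counts of Ndufa9 (named here after its values were seen).

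Complex II had few counts in CA3. Sdhc and Sdhd, its membrane anchors, had 0 counts in all 5 cells, against 287.03 and 211.8 CPM in CA1, so that they were at least 2626-fold and at least 1938-fold lower with a floor of 3 counts over the CA3 group (0.109 CPM). In CA1, 1 cell gave 71.3% of the Sdhc counts and 1 gave 69.9% of the Sdhd counts, and both stayed past the fold without their highest cell. Sdhb had 6 counts in the 5 cells (0.219 CPM, 0.0802 to 0.476) against 27.9 CPM. Sdha had 63.5, 186, 0, 63.1 and 0 CPM, 97.0 CPM in all against 68.9 in CA1, and was not past the fold. Sdhb, Sdhc and Sdhd were each detected in 0 of 5 cells, and in 4, 5 and 8 of 14 CA1 cells. For 0 of 5 cells the upper limit is 52.2% of cells with the gene detected (Clopper-Pearson, 95%), which covers counting error only and says nothing of other animals or of cells that express the gene.

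Ndufa1, a small X-linked complex I subunit, had 0.401 CPM in CA3, with at most 1.02 in a cell, against 709 in CA1 (8 of 14 cells). Atp5c1, the gamma subunit that turns inside the ATP synthase head, had 0.364 against 206 CPM, and Cox6a1 286.97, 0, 111, 3.84 and 0 CPM in the 5 cells against a CA1 median of 989. No CA3 cell lay above the CA1 median for these 3, and they stayed past the fold without their highest CA1 cell. Ndufs4, an accessory subunit of the electron entry arm, had 0 counts in CA3 and 67.8 CPM in CA1, of which 90.9% came from 1 cell, without which it was not past the fold. The ATP synthase head genes Atp5b and Atp5a1 had counts in every CA3 cell. Atp5b had 1908, 2359, 3307, 115.4 and 16.3 CPM and Atp5a1 1767, 519, 96.6, 2330 and 304.

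Among the tissue isoforms, Cox6a2 stood apart. Cox6a2 (chr7:128205435-128206387, minus strand, GRCm38, overlapped by an exon of Itgad on the other strand) encodes the form of subunit VIa known from heart and skeletal muscle, in place of Cox6a1. It was detected in 7 of 8 cultured hippocampal neurons, with 0, 158 and 896 CPM as the lowest, median and highest cell. It was detected in 0 of 86 astrocytes (1 count) and 0 of 13 cultured cortical neurons (3 counts), a CPM ratio of hippocampal to cortical cultures of 12635 (4323 to 61274, exact interval). In slices it was detected in 2 of 22 cortical neurons, P15 with 4429 and F1 with 429 CPM, in 1 of 14 CA1 neurons with 18.9 CPM and in 1 of 5 CA3 neurons, CA3_10, with 749 CPM. The summed levels of 352.55 CPM in cortical slice and 206 in CA3 neurons therefore rested on 2 cells and 1 cell. Without P15 the cortical slice level was 45.05 CPM. Cox6a2 was past the fold in hippocampal cultures with all 3 scalings.

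All 7 hippocampal cells with Cox6a2 also had Gad1, which was detected in all 8, and 6 of them had Pvalb, the calcium-binding protein of fast-spiking inhibitory neurons, at 5.92 and 7.49 CPM in the lowest cells, close to the limit of detection. Pvalb was also detected in 5 of 14 CA1 neurons, none with Cox6a2, and in 3 of 22 cortical slice neurons, 1 of them with Cox6a2. Gad1 did not go with Cox6a2 elsewhere. It was detected in 7 of 13 cultured cortical neurons, none with Cox6a2, and in 7 of 22 cortical slice neurons, 1 of them with Cox6a2. The single CA1 and CA3 cells with Cox6a2 lacked detected Gad1. Cox6a1 was detected in all 8 hippocampal cells, so both forms occurred together there. Cox7a1, the muscle form of subunit VIIa, had 1.91 CPM in astrocytes (10 of 86 cells), 5.55 in cultured cortical (1 of 13) and 4.32 in hippocampal neurons (2 of 8), and was detected in no slice cell.

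**Figure D5:**
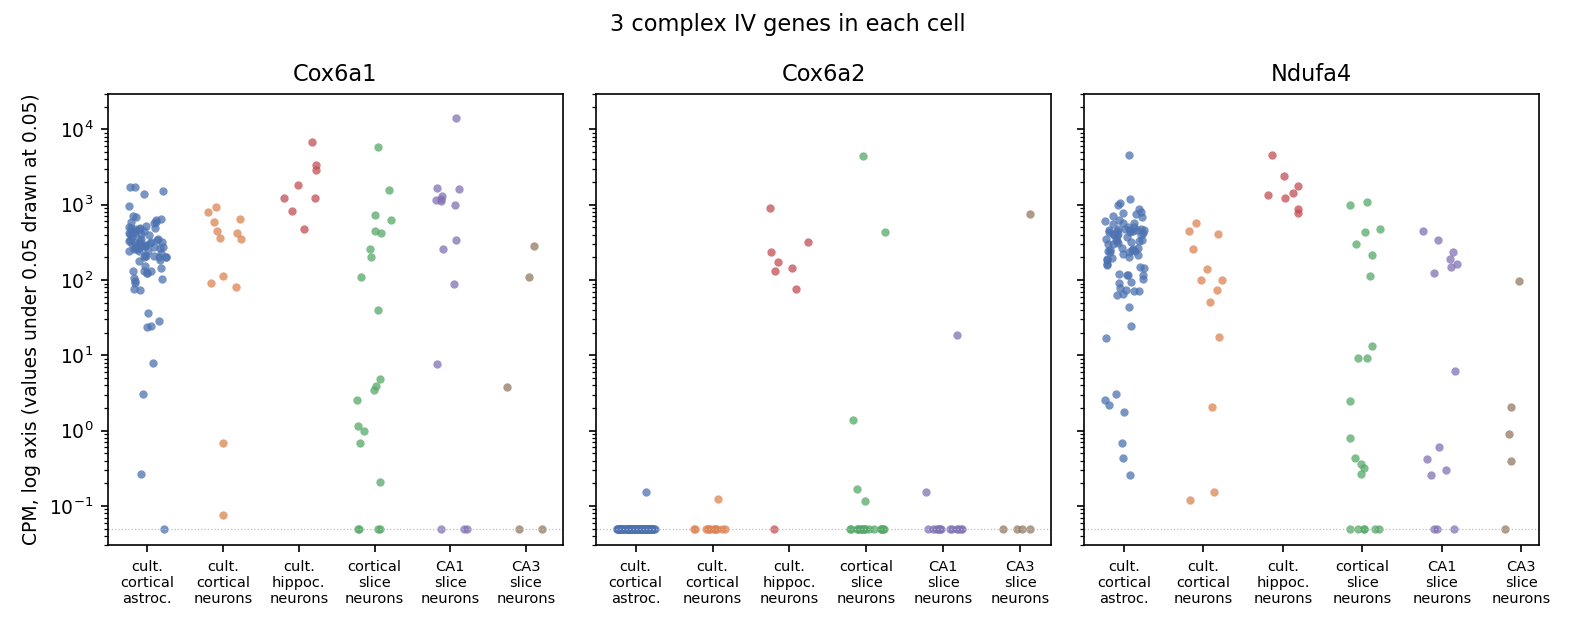
CPM of Cox6a1, Cox6a2 and Ndufa4 in each cell, by group, on a log axis, with values under 0.05 CPM drawn at 0.05. All 8 cultured hippocampal neurons lie above all 13 cultured cortical neurons for Ndufa4, and Cox6a2 was detected (at least 5 thinned counts) in 7 of those 8, in 2, 1 and 1 cells of the slice groups and in no other cultured cell, where the highest points are 1 count in an astrocyte and 3 counts in a cortical neuron.

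Several members need care because of their sequence. In the GENCODE vM21 annotation, 49 of the 94 shared some 50-base stretch with another gene and 29 overlapped an exon on the opposite strand. Shared stretches covered over 50% of the transcript for Atp5g2 (87.4%), Atp5l (84.8%), Cox7c (52.95%) and Atp5o (50.3%), so their levels are uncertain. Ndufs5 had 11, 5, 1, 0, 0 and 0 counts in astrocytes, cultured cortical, cultured hippocampal, cortical slice, CA1 and CA3 neurons and was detected in no cell. It shares 31.1% of its 50-base stretches with BC002163, which had 7.69, 13.6, 16.4, 8.51, 11.1 and 2.73 CPM in the same order. Its level is therefore uncertain.

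Genes around the respiratory chain, from 4 lists, were counted by the same rule. Against cultured cortical neurons, 16 of 37 assembly and metal-delivery genes, 6 of 18 genes of pyruvate dehydrogenase and the TCA cycle and 5 of 10 carriers were higher past the fold in hippocampal neurons and 0 lower, beside 19.2% and 7.36% of all genes. With TMM factors 7, 2 and 0 were higher, beside 6.81%, and with DESeq2's 0, 1 and 0, beside 0.771%. Slc25a5, an ADP/ATP carrier, had 1694 against 454 CPM. Of 12 regulators, 2 were higher and 2 lower past the fold, and 7 of the 12 had a lower level, with a median log2 ratio of -1.43. With TMM factors 1 was higher and 2 were lower, beside 6.81% and 7.56% of all genes. With DESeq2's 1 was higher and 0 lower, beside 0.771% and 3.46%. The 2 higher ones with total counts were Ppargc1a (188 against 76.1 CPM), the coactivator PGC-1alpha, and Esrrg (136 against 0.311 CPM), a nuclear receptor that works with it.

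In cortical slice against cultured neurons, 10 of 18 TCA cycle genes, 15 of 37 assembly genes, 7 of 12 regulators and 1 of 10 carriers were lower past the fold, beside 25.9% of all genes, and 0, 2, 1 and 0 were higher. Idh3a, a subunit of isocitrate dehydrogenase, had 162 against 654 CPM, and Tfam, which packages and transcribes mitochondrial DNA, 4.02 against 232. The TCA median was -1.51 and -0.75 with DESeq2 scaling. In CA3 against CA1 neurons 8 of 17 TCA genes were lower and 2 higher, and the other lists had 10 and 6 of 29 (assembly), 3 and 4 of 11 (regulators) and 3 and 0 of 10 (carriers), beside 25.8% lower and 17.2% higher of all genes. In CA1 against cortical slice neurons the lower and higher counts were 4 and 1 of 18 for the TCA cycle, 8 and 6 of 34 for assembly, 4 and 0 of 12 for regulators and 3 and 0 of 10 for carriers, beside 22% and 12.4% of all genes. In astrocytes against neurons they were 3 and 4 of 18, 3 and 9 of 38, 2 and 2 of 12 and 0 and 2 of 10, beside 11.2% and 18.5% of all genes, with Idh3a at 98.05 against 654 CPM and Slc25a5 at 1414.5 against 454.

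Within a group, the percents of counts on different complexes went together to different degrees, as a description of cells whose percents share a total. For these correlations the percents were taken as log2 after a small constant was added. Complexes I and III had Pearson's r of 0.69 over 86 astrocytes, -0.09 over 13 cultured cortical neurons, 0.52 over 22 cortical slice neurons and 0.83 over 15 CA1 neurons. For complexes I and V, r was 0.71 among astrocytes, 0.18 among cultured cortical and 0.84 among CA1 neurons but -0.09 among cortical slice neurons, where a cell high in the genes of complex I was not regularly high in those of the ATP synthase.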

How the data were processed

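The mouse gene table was mapped to samples by column titles alone. Per the submitters' processing notes, STAR and HTSeq were the authors' tools for alignment and counting on mm10 (GRCm38), after base calling with bcl2fastq 1.8.4 (some libraries) or bcl2fastq2 2.17. Which versions and annotation were used, and whether counting used strand, is not given in the sources used here. Per the labels, polyA RNA went through aRNA amplification and the TruSeq Stranded kit. The deposited values are raw counts of reads per gene, not normalized by the authors, and 2 duplicated row names were kept apart. The 9 pairs of libraries taken to be repeats of a cell (8 by title, 1 by its counts alone) were summed.

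Counts were expressed as CPM of the summed group (group totals 27452025 to 1275296188). Each cell was thinned once (seed 7) to 1000000 counts for detection (at least 5 counts), without 1 CA1 neuron of lower depth. Poisson intervals (95%) are narrow at this depth, so the spread between cells limits precision, and amplified reads are not independent molecules. No test was run, since each group is 1 sample. The past-the-fold rule and its background are defined in the report. The genes, lists and rules were chosen with earlier results of these data known. The genes named were, per comparison and direction, at most 10 past the fold with the largest difference in detection, beside main subunits and tissue isoforms listed beforehand. Alternatives were equal weight of cells, edgeR 4.0.16 TMM and DESeq2 1.42.0 size factors, pseudocounts of 0.1 and 5 CPM, at least 100 counts, detection at 1 count, first libraries only, subsets by basecalling version, culture days, title letter and marker genes, and each CA3 cell left out in turn. Chosen after seeing the data were the v1.8.4 subset, the hippocampal group without its highest cell, and each gene without its highest cell. The comparison was also run on simulated cells with known folds. Their spread between cells was set and not taken from these data, so the run does not cover genes that rest on a single cell. Positions and shared 50-base stretches came from GENCODE vM21, and promoters from RefSeq (GRCm38.p6). Python 3.11.15, pandas 2.3.3, scipy 1.17.1 and R 4.3.3 were used.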

Additional observations from a re-analysis of the deposited data

Results flagged for a closer look

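In groups of 4 to 10 cells, the highest and lowest cell were compared with the nearest other cell for the percent of counts on the 94 genes, for the percent on each complex and for the number detected. A gap that is too large a part of the group's range (Dixon's 95% value) set a cell apart. This was used as a rule of size and not as a test. Its nominal rate of about 1 in 20 groups by chance need not hold here, since both ends were examined and cells are not replicates. A cell was set apart in 10 of 16 groups and measures examined, and these measures share cells and counts.

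Of the cultured hippocampal neurons, the cell M9D was apart in 6 measures. It had 13.473% of its counts on the 94 genes, against 6.28% in the next cell. It was at 3.4205% for complex I (next 1.61%), 0.32942% for complex II (next 0.201%) and 1.3123% for complex III (next 0.752%). Complex IV stood at 4.4114% (next 2.12%) and complex V at 3.8629% (next 2.10%).

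Of the 5 CA3 neurons, CA3-8 had 0.41549% on complex III with cytochrome c (next 0.129%). The cell CA3_21 had 2.8208% on complex V (next 0.865%) and 0.087495% on assembly factors and related genes (next 0.00824%). The cell CA3-2 had 41 of the 94 genes detected, and the next cell 32.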

How the results depend on the processing

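Of the values recomputed under alternatives, 193 kept their direction and size, 30 counts moved and 11 log2 ratios of the percent changed sign. The cause of these differences was not tested. The percent of counts of each group moved by less than the SD over cells. Log2 ratios changed sign as follows. Astrocytes against neurons: 0.0083 with cells weighted equally and 0.013 with basecalling v2.17. Slice against cultured cortical neurons: -0.16 with equal weights, -0.17 with v2.17, -0.012 without neurons holding more astrocyte markers, -0.19 without slice cells holding microglia markers and -0.12 without title letter F. CA1 against cortical slice: -0.17 with v1.8.4. CA3 against CA1: 0.024 with equal weights, 0.43 without cells holding microglia markers, and -0.73 to 0.037 without each CA3 cell in turn, and 0.69 for complex I turned to -0.51 without CA3-8. The counts of genes past the fold below are given without the share of all genes, which moved with the setting too. With total counts and DESeq2 scaling, 11.2% and 6.54% of all genes were lower in astrocytes, where the count rose from 4 to 8. In hippocampal neurons 19.2% and 0.771% were higher, where the count fell from 39 to 2. A moved count alone therefore does not set these genes apart from all genes. Genes past the fold moved by over 1.5 times in these cases. Astrocytes, higher (4): 10 with equal weights, 2 with TMM, 2 with DESeq2, 14 with v2.17 and 7 without neurons holding astrocyte markers. Astrocytes, lower (4): 8 with DESeq2, 1 with detection at 1 count, 8 with v2.17 and 14 at 15 days. Slice, higher (2): 1 with v2.17, 1 without each marker set, 1 without letter F and 10 with v1.8.4. Slice, lower (22): 12 with DESeq2, 34 with v2.17, 34 without microglia markers and 10 with v1.8.4. Hippocampal, higher (39): 4 with TMM, 2 with DESeq2 and 13 at 15 days. Hippocampal, lower (0): 1 with first libraries only and 1 at 15 days. CA1, higher (13): 23 with DESeq2, 25 with v2.17, 22 without letter F and 7 with v1.8.4. CA1, lower (12): 7 with detection at 1 count, 7 without letter F and 23 with v1.8.4. CA3 counts stayed within 1.5 times, at 8 to 12 higher and 29 to 34 lower without each cell. No paired analysis was possible because replicate numbers only name cells and no test was run. Depth was not the limit for levels above a few CPM, while the 5 CA3 and 8 hippocampal cells limit what their groups can show.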
